A study of Mus with 9 samples.

Results

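Cytochrome P450 genes were followed in kidneys of aged mice. The genes were taken by name from the deposited table, as every protein-coding gene whose symbol begins with Cyp and a digit, except the Cyp4a genes, Cyp4b1, Cyp24a1, Cyp27b1 and Cyp51. This left 88 of the 100 protein-coding Cyp genes, out of 22046 protein-coding genes and 54532 genes in all. Whole-kidney RNA came from male C57BL/6 mice, with 3 libraries in each of 3 groups. Every mouse had lost 1 kidney by surgery at 18 months of age. The 18 mo group was killed 1 week later, before any injections. The 21 mo group received saline into the abdomen for 12 weeks, and the 21 mo/O304 group received O304, a direct activator of the energy-sensing kinase AMPK, at 10 mg/kg/day over the same 12 weeks. Age, time since surgery and daily injections thus set the 18 mo group apart together and cannot be told apart. The labels number the libraries 1 to 3 in each group without saying that they are separate animals, so p-values measure the spread between these libraries. They are named here as the labels do, so that 21 mo-3 is replicate 3 of that group.

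Cytochrome P450s are heme enzymes that insert oxygen into small molecules. Most sit in the membrane of the endoplasmic reticulum and take electrons from P450 reductase, while a few sit in mitochondria and take them from ferredoxin. Members of the Cyp1, Cyp2 and Cyp3 families mainly act on drugs, toxins, steroids and fatty acids, those of Cyp4f on fatty acids and leukotrienes, and others make or remove bile acids, steroid hormones and retinoic acid. In the kidney these enzymes are concentrated in the proximal tubule, the first stretch of the nephron, and in mice several of them differ between the sexes.

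Library totals ran from 15636378 to 18396725 counts, and 1 count was worth 0.0458 to 0.0669 CPM, the unit of counts scaled to library size by edgeR's TMM method. Libraries of the 21 mo group differed widely from each other. 21 mo-2 and 21 mo-3 stood apart from all others in the summed markers of the proximal tubule, macrophages, fibroblasts and tubule injury, though not in every list. The summed CPM of 7 proximal tubule markers was 82.2% to 111% of the 18 mo mean in the 18 mo libraries and 86.3% to 103% in the 21 mo/O304 libraries, but 87.1%, 40.8% and 10.6% in 21 mo-1, 21 mo-2 and 21 mo-3. For 5 markers of the S3 segment, the last part of the proximal tubule, these 3 libraries were at 101%, 34.5% and 5.53%. In the same order, 5 macrophage markers stood at 203%, 336% and 1033%, 4 fibroblast markers at 67.0%, 297% and 691%, and 4 tubule injury markers at 150%, 2353% and 3268%. The summed CPM of the 4 lymphocyte markers was at 58.2%, 68.6% and 404% in these libraries and at 139%, 449% and 361% in the 21 mo/O304 libraries. Jchain made up most of these sums, at 608 CPM in 21 mo-3 and 207, 670 and 541 CPM in the 21 mo/O304 libraries. Cd79a, at 2.68, 6.20 and 4.14 CPM with O304, was above all 18 mo libraries, while Cd3e and Ms4a1 overlapped between the groups. All 7 proximal tubule markers were tested, and 0 of them were at 0 in any library. Among these 7, only Slc5a12 was within its 18 mo range in 21 mo-3, at 92.5 CPM. Of markers of other tissues, 5 hepatocyte genes summed to 112 to 281 CPM across all libraries. Most of this sum was Ttr, at 32.2 to 228 CPM, and Fga, which was highest in 21 mo-3 at 136 CPM. The other hepatocyte genes were low, with Alb at 0.504 to 16.9 CPM, Apoa2 at 1.01 to 4.81 CPM and Serpina3k at 0 to 1.01 CPM. The 6 adipocyte genes summed to 129, 7.99 and 109 CPM in the 21 mo/O304 libraries and to 0 to 7.30 CPM in the others. Fewer cells of a type and less RNA per cell cannot be told apart in such bulk libraries, and the part of cell composition in the results was not tested.

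Most of the P450 genes were scarcely detected in these kidneys. Of the 88 genes, 21 had no count in any library, 41 had some counts but a mean below 1 FPKM, the authors' value of fragments scaled by gene length and library size, 13 had a mean of 1 to 10 FPKM, 9 of 10 to 100 FPKM and 4 of 100 FPKM or more. The filter on low counts passed 39 genes, which are the genes tested. Of the 49 that did not pass, 28 had at least 1 count, and the highest total over the 9 libraries was 46, for Cyp17a1, the steroid 17-hydroxylase. A count of 0 in a library allows up to 3 counts, a limit that covers counting error only.

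Neighbouring genes of a cluster lay at very different levels. On chromosome 4, 8 Cyp2j genes lie in a row, and they include Cyp2j5 with a mean of 524 FPKM over the 9 libraries, Cyp2j11 with 94.9 and Cyp2j13 with 75.2, next to Cyp2j7 with 0.476 and Cyp2j12 with no count. Of 15 Cyp2c genes on chromosome 19, 14 had a mean below 1 FPKM and 6 had no count. The exception was Cyp2c23, at 18.7 FPKM, an epoxygenase of arachidonic acid. It lies apart from the other 14 (44005022 to 44029208 in GRCm38), which end with Cyp2c70 at 40187333, so it is not their close neighbour. None of the 9 Cyp3a genes, the main drug-metabolizing P450s of the liver, reached a mean of 1 FPKM, and 5 had no count. Of 8 Cyp2d genes on chromosome 15, 3 were above 10 FPKM, namely Cyp2d9, Cyp2d12 and Cyp2d26. Many of these paralogs are close in sequence, Cyp2a4 and Cyp2a5 above all, and the treatment of reads that match several genes is not given in the sources used here, so values within these clusters are uncertain.

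**Figure D1:**
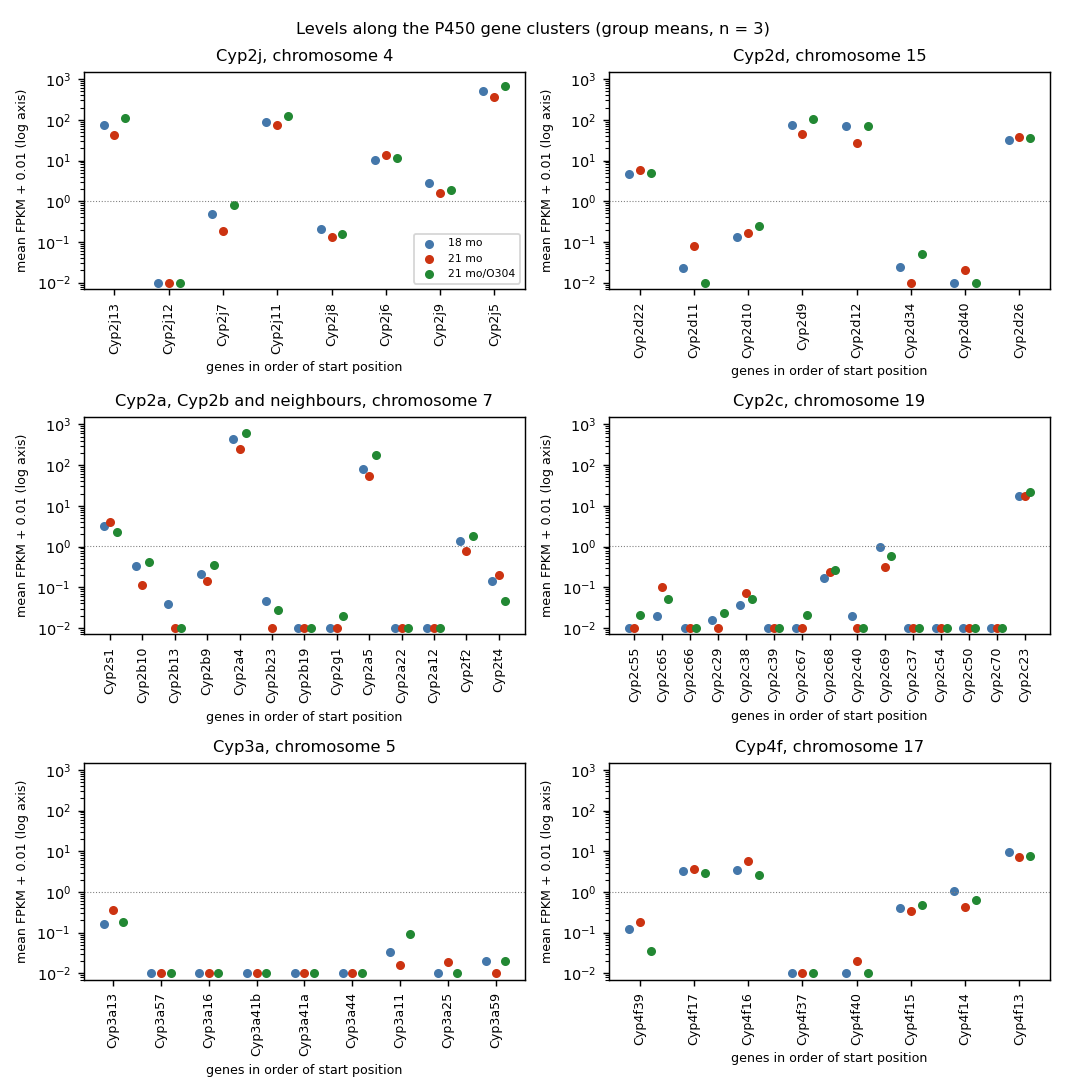
Mean deposited FPKM of each group (n = 3 libraries, 0.01 added, log axis) for the P450 genes of 6 clusters, in order of start position; the dotted line marks 1 FPKM. Within each row a few genes carry nearly all of the signal, and the Cyp3a row stays below 1 FPKM in every group. Cyp2c23 and Cyp3a13 are drawn in their rows but lie at a distance from the other genes on the chromosome.

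The genes of steroid hormone synthesis were near zero. Of 6 such genes, 0 passed the filter, and Cyp11b2 and Cyp19a1, the aldosterone and estrogen synthases, had no count. Cyp17a1 had 10, 2 and 2 counts in the 18 mo libraries, 5, 1 and 14 in the 21 mo libraries and 3, 9 and 0 in the 21 mo/O304 libraries. Of 7 adrenal markers, Nr5a1, Dbh, Th and Pnmt were at 0 in all 9 libraries, and the sum of the list was 3.48 to 5.82 CPM. Cyp8b1, which sets the ratio of bile acids in the liver, also failed the filter, with 19 counts in total.

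A small number of genes made up most of the P450 transcript pool. The 10 genes with the highest mean FPKM were Cyp2e1, Cyp2j5, Cyp2a4, Cyp2a5, Cyp2j11, Cyp2j13, Cyp2d9, Cyp2d12, Cyp7b1 and Cyp2d26. They accounted for 94.3% to 95.9% of the summed FPKM of all 88 genes in the 18 mo libraries and for 95.9% to 96.6% in the 21 mo/O304 libraries. In 21 mo-1, 21 mo-2 and 21 mo-3 the share was 95.4%, 88.7% and 54.4%. The summed FPKM itself was 1903, 2533 and 1907 at 18 mo, 2660, 995 and 274 at 21 mo, and 2950, 2652 and 3212 with O304. Every 21 mo/O304 library was thus above every 18 mo library, while the 21 mo libraries included one above the 18 mo range and a pair below it. Without the 10 leading genes the sum lay between 102 and 125 FPKM in all 9 libraries, with 21 mo-3 the highest.

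Cyp2e1, which oxidizes ethanol, acetone and other small molecules, led the 18 mo and 21 mo/O304 groups. Its mean was 591 ± 179 FPKM at 18 mo and 857 ± 196 FPKM with O304 (SD, n = 3 each). Cyp2j5, an epoxygenase of arachidonic acid known from the proximal tubule, had 506 ± 34.7 and 696 ± 15.5 FPKM, and Cyp2a4, a steroid hydroxylase, 442 ± 108 and 601 ± 59.2 FPKM (SD, n = 3 each). In the 18 mo group the libraries of these 3 genes overlapped, so their order was not resolved, whereas Cyp2a4 was separate from the next gene, Cyp2j11 at 89.3 ± 11.9 FPKM. In the 21 mo/O304 group the order Cyp2e1, Cyp2j5, Cyp2a4 and Cyp2a5 held without overlap between neighbours. In the 21 mo group each of the 10 genes overlapped its neighbour in the order, since the SD was close to or above the mean for most of them (Cyp2a4, 255 ± 316 FPKM, n = 3).

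**Figure D2:**
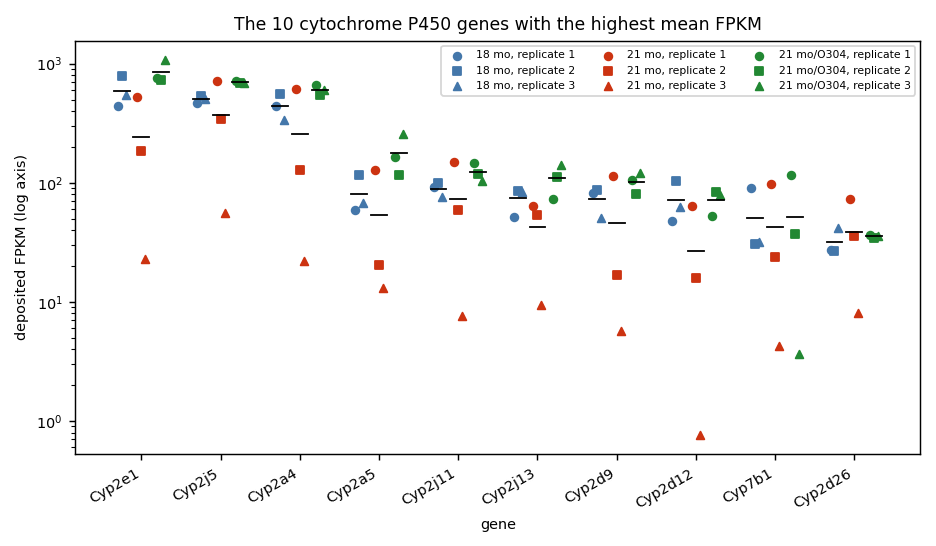
Deposited FPKM per library (log axis) of the 10 P450 genes with the highest mean; circles, squares and triangles are replicates 1, 2 and 3, and black lines are group means (n = 3). 21 mo-3 is the lowest library for 9 of the 10 genes, from 0.761 FPKM for Cyp2d12 to 55.8 FPKM for Cyp2j5, and Cyp7b1 is lowest in 21 mo/O304-3.

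The question asked of 21 mo against 18 mo was how the aged kidney differed 12 weeks on. The abundant genes differed between the 21 mo libraries more than between the groups. Cyp2e1 (chromosome 7, 140763739 to 140774987) stood at 996, 1735 and 1202 CPM at 18 mo, 1159, 407 and 51.1 CPM at 21 mo and 1683, 1628 and 2409 CPM with O304. 21 mo-1 lay within the 18 mo range, and 21 mo-2 and 21 mo-3 lay 3.22-fold and 25.7-fold below the 18 mo mean. Cyp2j5 (chromosome 4, 96628773 to 96664154) had 1151, 1289 and 1225 CPM at 18 mo, 1721, 837 and 136 CPM at 21 mo and 1725, 1667 and 1652 CPM with O304. Its 21 mo/O304 libraries lay above all 18 mo libraries and agreed closely with each other. Cyp2a4 (chromosome 7, 26307169 to 26315088, overlapping a gene on the other strand) had 795, 977 and 602 CPM, then 1102, 229 and 39.7 CPM, then 1186, 973 and 1069 CPM in the 3 groups.

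Among the 10 leading genes, Cyp2d12, of the Cyp2d family of drug and steroid oxidases, had the widest range within the 21 mo group. It stood at 193, 408 and 249 CPM at 18 mo, 255, 63.4 and 3.07 CPM at 21 mo and 211, 333 and 317 CPM with O304, which put 21 mo-3 92.4-fold under the 18 mo mean. For Cyp2d9 that library was 12.7-fold lower, for Cyp2j11 11.7-fold, for Cyp2j13 7.84-fold and for Cyp2a5 6.12-fold. Cyp2d26 had another order, with 51.2, 49.1 and 77.1 CPM in the 18 mo group against 135, 65.8 and 15.1 CPM at 21 mo and 68.0, 63.2 and 65.8 CPM with O304. Its highest library was 21 mo-1, and 21 mo-2 was within the 18 mo range. Cyp2c23 had the same kind of order, with 36.7, 36.0 and 41.2 CPM, then 70.8, 38.9 and 7.19 CPM, then 65.7, 35.6 and 43.1 CPM.

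Fitted fold changes of these genes carried wide errors, given here and for all later log2 fold changes as ± SE. In edgeR's quasi-likelihood test the log2 fold change of 21 mo against 18 mo was −1.28 ± 0.82 (adjusted p = 0.34) for Cyp2e1, −0.44 ± 0.66 (adjusted p = 0.69) for Cyp2j5 and −1.41 ± 1.04 (adjusted p = 0.41) for Cyp2d12. For Cyp2d26 the value was 0.28 ± 0.58 (adjusted p = 0.79). None of these differences exceeded the spread between libraries. With 21 mo-3 left out they were −0.76 for Cyp2e1, 0.05 for Cyp2j5 and −0.85 for Cyp2d12, and with 21 mo-1 left out −2.50, −1.31 and −3.08.

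The remaining P450 genes did not follow one pattern, which the heatmap of deviations from the 18 mo mean shows. Relative to that mean, the median log2 deviation of the 10 leading genes was 0.60, −1.26 and −3.44 in 21 mo-1, 21 mo-2 and 21 mo-3, against 0.53, 0.34 and 0.45 with O304. The medians over all 15902 genes tested stayed between −0.0066 and 0.019 in the 9 libraries. The TMM scaling, made over these same genes, largely sets these medians and the median fold changes over all genes given below. In 21 mo-3, 17 of the 39 tested P450 genes were more than 2-fold below the 18 mo mean and 7 more than 2-fold above it, while 13.9% of all genes were below and 16.8% above by that much. In 21 mo-2 the counts were 12 below and 4 above, beside 6.98% and 7.89% of all genes. In 21 mo-1 they were 3 below and 2 above, beside 3.73% and 3.84%.

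**Figure D3:**
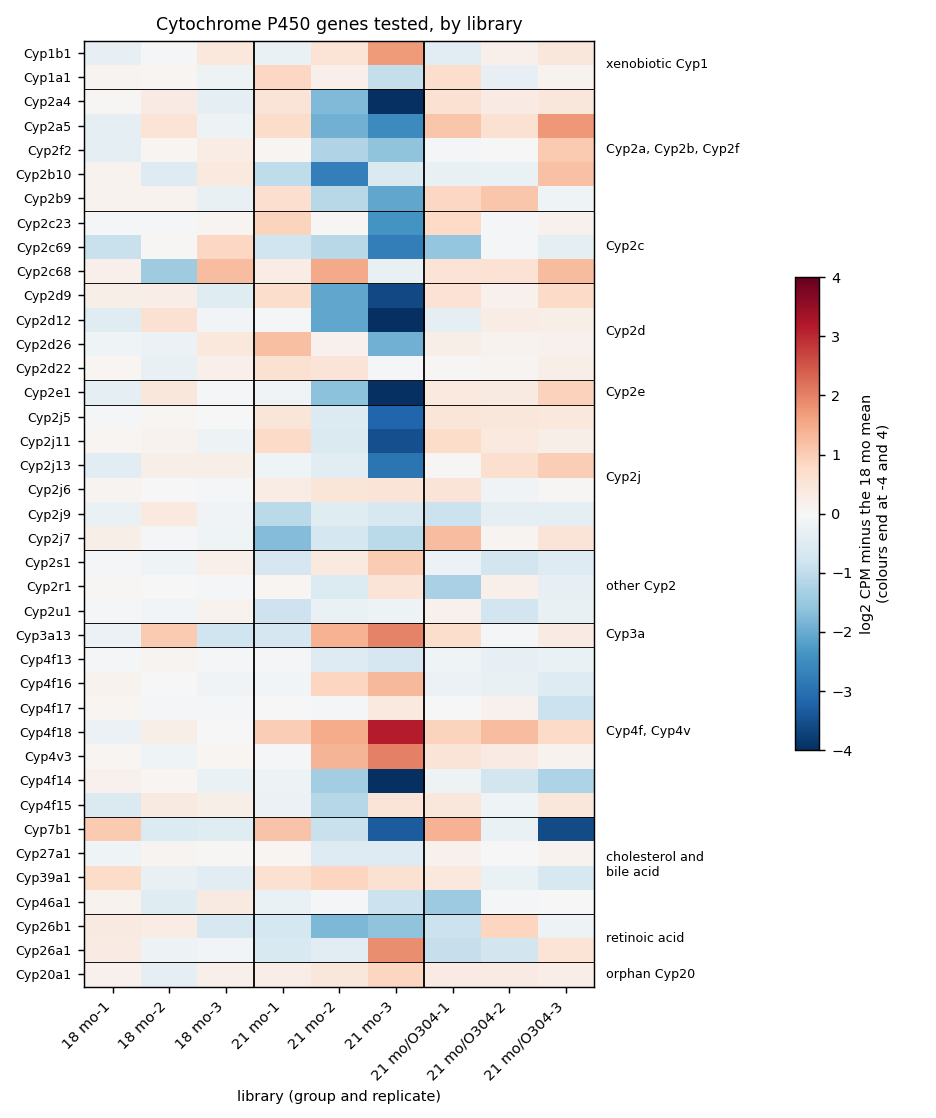
Log2 CPM minus the 18 mo mean for the 39 P450 genes tested (rows, by family and then by mean FPKM) in the 9 libraries (columns); blue is lower, red is higher, and colours end at −4 and 4. Deep blue stands out in 21 mo-3 among Cyp2a, Cyp2d, Cyp2e and Cyp2j genes, with Cyp4f18, Cyp4v3, Cyp3a13, Cyp1b1 and Cyp26a1 red in the same library.

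With 21 mo against 18 mo, 0 of the 39 P450 genes had an adjusted p under 0.05 in edgeR's quasi-likelihood test, where 0.0189% of all 15902 genes did. At an unadjusted p under 0.05, 5 were higher and 5 lower, each 12.8% of the 39, beside 14% and 12% of all genes. The groups did not overlap for 3 genes that were higher (7.69%, beside 13.5% of all genes) and for 5 that were lower (12.8%, beside 15.3%). These shares were close to or under those of all genes. The fitted value was higher for 17 and lower for 22, with a median log2 fold change of −0.29, against 0.03 over all genes. A single gene compared as 3 libraries against 3 cannot go below p = 0.1 in an exact permutation test.

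How many genes passed depended on the method and on whether 21 mo-1 was kept. DESeq2 called 2 of 39 higher, Cyp4f18 and Cyp4v3 (6.92% of all genes were called higher), and 1 lower, Cyp26b1 (5.43% of all genes lower). limma voom with sample quality weights, which counts divergent libraries less, called 8 higher (20.5%, beside 26.3% of all genes) and 16 lower (41%, beside 26.6%). The 16 included Cyp2e1, Cyp2j5, Cyp2a4, Cyp2a5, Cyp2d9 and Cyp2d12. Without 21 mo-1, edgeR called 6 of 40 higher (15%, beside 13.6% of all genes) and 8 lower (20%, beside 11.9%). The 6 were Cyp4f18, Cyp4v3, Cyp4f16, Cyp1b1, Cyp2s1 and Cyp20a1, and the 8 were Cyp2e1, Cyp2a4, Cyp2a5, Cyp2d9, Cyp2f2, Cyp4f13, Cyp26b1 and Cyp27a1. Leaving out any other single library called 0.

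**Figure D4:**
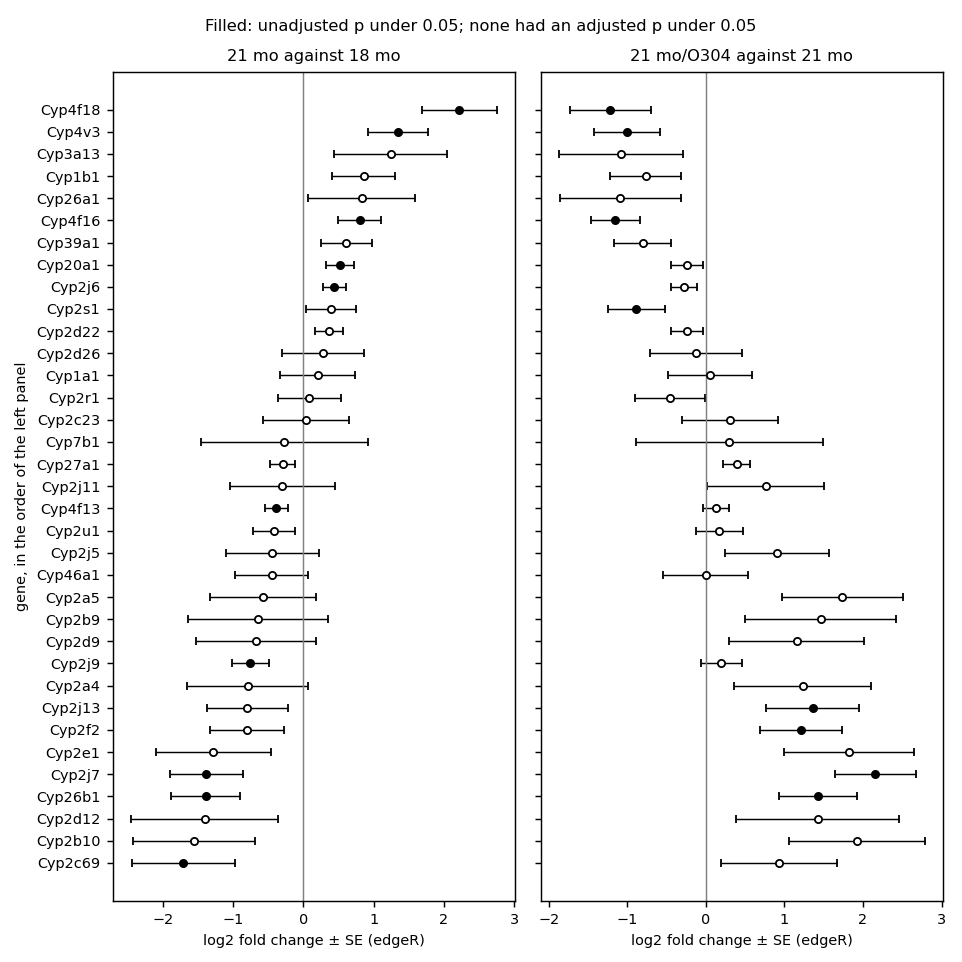
Log2 fold changes with SE (edgeR's quasi-likelihood test, n = 3 libraries per group) for the tested P450 genes that the naming rule chose; filled points had an unadjusted p under 0.05 and no gene had an adjusted p under 0.05. Both panels use the same 3 libraries of the 21 mo group, so their opposite slopes are not independent of each other.

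Among the less abundant genes, the smallest p-value was that of Cyp4f18, which hydroxylates leukotriene B4 in leukocytes. Cyp4f18 (chromosome 8, 71988482 to 72009626, apart from the other Cyp4f genes on chromosome 17 and overlapping Zfp961 on the opposite strand) was at 1.86, 2.65 and 2.21 CPM at 18 mo and at 4.48, 6.37 and 20.4 CPM at 21 mo. The groups did not overlap, and the log2 fold change of 2.22 ± 0.53 came with the smallest adjusted p of any P450 gene, 0.0729 in edgeR. It was 1.26 ± 0.29 without 21 mo-3 and 2.59 ± 0.45 without 21 mo-1, and in the latter fit Cyp4f18 passed the threshold. The 21 mo/O304 libraries had 4.19, 5.42 and 3.88 CPM, above all 18 mo libraries and with 21 mo-1 inside their range. The macrophage markers given above were also highest in the 21 mo group. Against 18 mo, 4 of 5 of them were higher at an unadjusted p under 0.05 in edgeR, beside 14% of all genes, and 0 had an adjusted p under 0.05. Their part in the Cyp4f18 values was not tested.

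Cyp4v3, a fatty acid hydroxylase, and Cyp4f16 stood high in 21 mo-2 and 21 mo-3. Cyp4v3 had 6.07, 4.99 and 6.05 CPM at 18 mo, 5.55, 14.8 and 23.1 CPM at 21 mo and 8.26, 7.21 and 6.24 CPM with O304. Cyp4f16 had 11.4, 10.6 and 9.39 CPM, then 9.63, 19.04 and 25.97 CPM, then 8.78, 8.52 and 7.32 CPM. For both, 21 mo-1 lay within the 18 mo range, so the groups overlapped. The log2 fold changes of 21 mo against 18 mo were 1.35 ± 0.43 (adjusted p = 0.10) and 0.80 ± 0.31 (adjusted p = 0.15) in edgeR. Both passed the threshold once 21 mo-1 was left out, at 1.75 and 1.12, and without 21 mo-3 they were 0.82 and 0.44.

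Cyp1b1, which oxidizes estrogens and polycyclic hydrocarbons and is found in stromal cells, showed a single high library. It had 26.3, 30.7 and 43.6 CPM at 18 mo, 27.5, 47.9 and 107 CPM at 21 mo and 24.2, 38.0 and 45.01 CPM with O304. Its log2 fold change was 0.86 ± 0.45 (adjusted p = 0.26, edgeR), and 0.15 without 21 mo-3. The fibroblast markers were also highest in that library, and their part was not tested. Cyp1a1, the classic target of the aryl hydrocarbon receptor, stayed between 0.412 and 1.74 CPM in all libraries, with the highest and the lowest both in the 21 mo group. Cyp3a13 and Cyp26a1 were low genes whose highest library was again 21 mo-3, at 1.88 and 3.48 CPM.

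Smaller differences, with every 21 mo library above every 18 mo library, were found for Cyp2j6 and Cyp20a1. Cyp2j6 (chromosome 4, 96516138 to 96553661), which lies between Cyp2j8 and Cyp2j9 in the row of Cyp2j genes, had 40.3, 37.5 and 35.4 CPM at 18 mo and 46.1, 53.1 and 54.2 CPM at 21 mo, with no overlap. Within the 21 mo group its order was the reverse of that of Cyp2j5, in the same row. The log2 fold change was 0.44 ± 0.16 (adjusted p = 0.14, edgeR), and 0.38 without 21 mo-3. Cyp20a1, a P450 without a known substrate, had 20.0, 13.6 and 20.4 CPM at 18 mo and 21.1, 24.2 and 32.4 CPM at 21 mo (log2 fold change 0.53 ± 0.20, adjusted p = 0.14, edgeR). With O304 the values of Cyp2j6 were 53.4, 34.5 and 38.9 CPM and those of Cyp20a1 22.4, 22.3 and 21.3 CPM.

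Several genes outside the abundant group were lower in the 21 mo libraries, 21 mo-1 included. Cyp26b1, which clears retinoic acid, had 13.3, 12.9 and 6.56 CPM at 18 mo and 6.29, 2.90 and 3.34 CPM at 21 mo, so the groups did not overlap. Its log2 fold change was −1.39 ± 0.50 (adjusted p = 0.13, edgeR), and −1.27 without 21 mo-3. Cyp2j9 had 7.68, 12.3 and 8.49 CPM at 18 mo and 4.35, 6.59 and 5.91 CPM at 21 mo (log2 fold change −0.75 ± 0.26, adjusted p = 0.12, edgeR), with 21 mo-1 the lowest. Cyp2j7 had 0.867, 0.678 and 0.622 CPM at 18 mo and 0.134, 0.398 and 0.275 CPM at 21 mo, again with 21 mo-1 the lowest, which is the library with the highest Cyp2j5 of that group. Cyp2j7 rested on 2, 7 and 6 counts in 21 mo-1, 21 mo-2 and 21 mo-3, so the order of these libraries was not resolved. Cyp2j9 was lowest in 21 mo-1, where the proximal tubule markers were highest among the 21 mo libraries. The part of tubule cell content in these values was not tested.

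**Figure D5:**
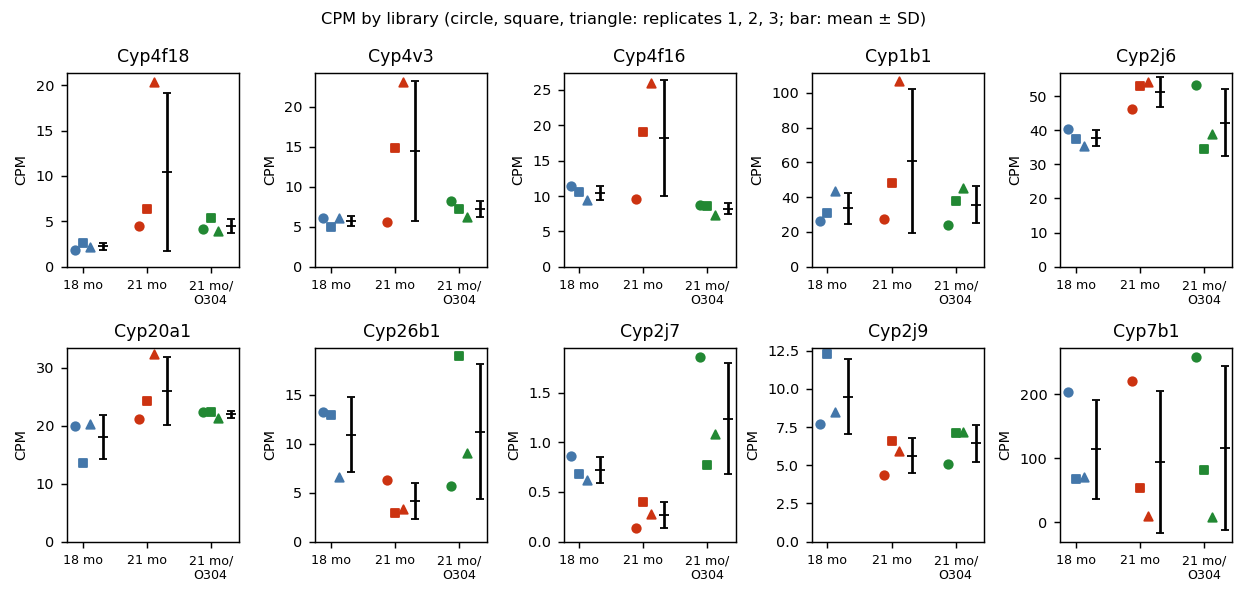
CPM per library for 10 P450 genes that the naming rule chose; circles, squares and triangles are replicates 1, 2 and 3, and the bar beside each group is its mean ± SD (n = 3). Cyp4f18, Cyp4v3, Cyp4f16 and Cyp1b1 are highest in 21 mo-3, Cyp26b1, Cyp2j7 and Cyp2j9 are low in all 3 libraries of the 21 mo group, and Cyp7b1 spreads widely within every group.

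The hydroxylases of cholesterol and bile acid metabolism differed from each other. Cyp27a1, the mitochondrial sterol 27-hydroxylase, was among the steadiest, with 41.4, 50.2 and 48.5 CPM at 18 mo, 49.5, 32.7 and 32.3 CPM at 21 mo and 52.3, 45.95 and 51.6 CPM with O304. Its log2 fold change was −0.29 ± 0.18 (adjusted p = 0.31, edgeR) for 21 mo against 18 mo, and with 21 mo-1 left out it was lower past the threshold, at −0.51. Cyp7b1, the oxysterol 7-hydroxylase (chromosome 3, 18071950 to 18243338), varied within every group, with 204, 67.7 and 70.6 CPM, then 220, 53.7 and 9.67 CPM, then 258, 82.2 and 8.21 CPM. Replicate 1 was the highest library in each group. The lowest Cyp7b1 library was 21 mo/O304-3, in which the proximal tubule markers stood at 103% of the 18 mo mean, and the highest of the 3 libraries was 31.5-fold above it. The part of tubule cell content in the Cyp7b1 values was not tested. Cyp39a1, another oxysterol hydroxylase, had 13.4, 6.53 and 5.94 CPM, then 12.3, 14.8 and 12.4 CPM, then 10.8, 6.68 and 5.16 CPM. Cyp2r1, a vitamin D 25-hydroxylase, lay between 0.756 and 2.98 CPM in all libraries, with both extremes among the older mice.

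The effect of O304 was asked of 21 mo/O304 against 21 mo. For Cyp2e1 and Cyp2j13, 2 of the 10 leading genes, all 3 libraries of the 21 mo/O304 group were above all 3 of the 21 mo group. For the others, 21 mo-1 was at or above part of the 21 mo/O304 range. Cyp2j13 (chromosome 4, 96027534 to 96077546) had 253, 409 and 408 CPM at 18 mo, 312, 260 and 45.5 CPM at 21 mo and 356, 543 and 684 CPM with O304. Its log2 fold change was 1.36 ± 0.59 (adjusted p = 0.24, edgeR), and 0.89 without 21 mo-3. Cyp2e1 had a log2 fold change of 1.82 ± 0.83 (adjusted p = 0.25, edgeR), 1.29 without that library and 3.05 without 21 mo-1, the latter past the threshold. Cyp2a5, a coumarin hydroxylase, had 274, 43.3 and 28.0 CPM at 21 mo and 355, 249 and 544 CPM with O304, and a log2 fold change of 1.74 ± 0.77 (adjusted p = 0.24, edgeR).

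Among low genes, Cyp2j7 and Cyp26b1 had higher fitted values with O304, short of the threshold in edgeR. Cyp2j7 had 1.86, 0.775 and 1.08 CPM with O304, above every 21 mo library. Its log2 fold change was 2.16 ± 0.51 (adjusted p = 0.17, edgeR), and 2.17 without 21 mo-3. Cyp26b1 had 5.70, 18.9 and 9.04 CPM with O304, where 21 mo/O304-1 lay within the 21 mo range (log2 fold change 1.43 ± 0.50, adjusted p = 0.19, edgeR). Cyp2f2, which oxidizes naphthalene and is best known from lung, had 2.94, 1.14 and 0.825 CPM at 21 mo and 2.68, 2.80 and 5.79 CPM with O304. Cyp2b10, a target of the constitutive androstane receptor, had 0.268, 0 and 0.412 CPM at 21 mo and 0.523, 0.536 and 1.66 CPM with O304, at the limit of detection in the first group.

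Of the Cyp4 genes described above, only Cyp4f16 was separate between the 21 mo/O304 and 21 mo libraries. Cyp4f16 was lower in all 3 libraries of the 21 mo/O304 group than in any of the 21 mo group, with a log2 fold change of −1.15 ± 0.31 (adjusted p = 0.17, edgeR), and −0.80 without 21 mo-3. Cyp4v3 had −1.003 ± 0.42 (adjusted p = 0.23, edgeR) and Cyp4f18 −1.21 ± 0.51 (adjusted p = 0.23, edgeR), which became −0.48 and −0.26 without that library. In 21 mo-1, Cyp4v3 was below all 3 libraries with O304 and Cyp4f18 was within their range. Cyp2s1, expressed in epithelia and known to act on retinoids and lipids, had 15.4, 13.9 and 18.4 CPM at 18 mo, 9.83, 20.5 and 31.97 CPM at 21 mo and 13.3, 9.42 and 11.01 CPM with O304, so 21 mo-1 was within the O304 range.

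With 21 mo/O304 against 21 mo, 0 of the 39 P450 genes had an adjusted p under 0.05 in edgeR, as did 0% of all genes. At an unadjusted p under 0.05, 4 were higher (10.3%, beside 8.27% of all genes) and 4 lower (10.3%, beside 12.4%). The groups did not overlap for 4 that were higher (10.3%, beside 10.8%) and 2 that were lower (5.13%, beside 10.5%). The counts were thus near or under those of all genes, and this comparison uses the same 21 mo libraries as the one with 18 mo. The fitted value was higher for 24 and lower for 15, with a median log2 fold change of 0.20, against −0.02 over all genes. DESeq2 called Cyp2j7 higher and Cyp4f16 lower, 2.7% of 37 genes each, beside 1.81% and 4.27% of all genes. voom with quality weights called 16 higher (41%, beside 21.2% of all genes) and 6 lower (15.4%, beside 19.8%). Without 21 mo-1, edgeR called 9 of 40 higher (22.5%, beside 10.6%) and 4 lower (10%, beside 12.6%), and 0 without any other single library.

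The 21 mo/O304 libraries were also compared with the 18 mo group, which they follow by 12 weeks. Here 0 of 39 had an adjusted p under 0.05 in edgeR, DESeq2 or voom, as did 0% of all genes in edgeR. Over all genes DESeq2 called 46 higher and 80 lower of 28225 with a count, and voom called 165 higher and 250 lower, which is 2.61% of those tested. At an unadjusted p under 0.05 in edgeR, 0 were higher and 0 lower, beside 4.33% and 5.33% of all genes. The groups did not overlap for 6 genes that were higher (15.4%, beside 13.2% of all genes), among them Cyp2j5, Cyp2j11 and Cyp2a5, and for 4 that were lower (10.3%, beside 13.3%), among them Cyp2j9 and Cyp4f13. For Cyp2a5 the values were 128, 243 and 144 CPM at 18 mo and a log2 fold change of 1.16 ± 0.76 (adjusted p = 0.67, edgeR), and Cyp4f18 one of 1.01 ± 0.53 (adjusted p = 0.58, edgeR). The median log2 fold change was 0.16, against 0.00 over all genes, with 27 higher and 12 lower.

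The genes that serve P450 enzymes were followed as well, in a list of 41 of which 36 were tested. It covers electron donors, heme supply, receptors that set P450 transcription and epoxide hydrolases. For 21 mo against 18 mo, 0 had an adjusted p under 0.05 in edgeR, and at an unadjusted p under 0.05, 2 were higher and 10 lower, beside 14% and 12% of all genes. Fitted values were lower for 27 and higher for 9, with a median of −0.29. Without 21 mo-1, 3 were called higher and 12 lower, beside 13.6% and 11.9% of all genes. DESeq2 called 2 and 4, beside 6.92% and 5.43%, and voom with quality weights 3 and 20, beside 26.3% and 26.6%.

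Por, the reductase that feeds electrons to all microsomal P450s, was at 401, 470 and 430 CPM at 18 mo, 312, 224 and 176 CPM at 21 mo and 369, 354 and 332 CPM with O304. The 3 groups did not overlap, with the 21 mo libraries lowest and the 18 mo libraries highest. Its log2 fold change was −0.87 ± 0.21 (adjusted p = 0.076, edgeR) for 21 mo against 18 mo and 0.57 ± 0.21 (adjusted p = 0.20, edgeR) for 21 mo/O304 against 21 mo. Cyb5a, cytochrome b5, had 800, 988 and 849 CPM, then 748, 412 and 194 CPM, then 811, 816 and 1087 CPM. Fdx1 and Fdxr, the ferredoxin and its reductase for mitochondrial P450s, had log2 fold changes of −0.78 ± 0.26 and −0.62 ± 0.22 for 21 mo against 18 mo, and of 0.69 and 0.52 for 21 mo/O304 against 21 mo. For Por, Cyb5a, Fdx1 and Fdxr the lowest library was 21 mo-3, and for each of them 21 mo-1 was already below all 18 mo libraries. Other donors on the list differed from these. Fitted values of the 7 microsomal donors were lower at 21 mo for 5 and higher for Pgrmc1 and Cyb5r1. For 3 of the 7, Por, Cyb5a and Pgrmc2, every 21 mo library was below every 18 mo library. Cyb5b was at 635 CPM in 21 mo-1, against 534, 634 and 529 CPM at 18 mo.

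Among the receptors, Rxra, the shared partner of nuclear receptors, had a log2 fold change of −0.65 ± 0.23 for 21 mo against 18 mo, and Hnf4a −0.52 ± 0.40. Ahr, the aryl hydrocarbon receptor, was higher in all 21 mo libraries, at 10.2, 12.3 and 30.3 CPM against 8.79, 5.79 and 8.15 CPM at 18 mo (log2 fold change 1.22 ± 0.39, adjusted p = 0.11, edgeR). Nr1i3, the constitutive androstane receptor, failed the filter, with at most 0.298 CPM.

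Of 4 epoxide hydrolases, which act on products of P450s, Ephx3 and Ephx4 failed the filter. The 2 that were tested had fitted values in opposite directions, short of the threshold in edgeR. Ephx1, the microsomal enzyme, had 56.4, 35.4 and 40.5 CPM at 18 mo, 56.5, 113 and 102 CPM at 21 mo and 35.9, 32.8 and 33.9 CPM with O304, so the 21 mo libraries were above all libraries of both other groups, though 21 mo-1 by a narrow margin. Its log2 fold changes were 1.04 ± 0.26 (adjusted p = 0.077, edgeR) for 21 mo against 18 mo and −1.40 ± 0.26 (adjusted p = 0.17, edgeR) for 21 mo/O304 against 21 mo. Ephx2, the soluble enzyme that hydrolyses arachidonic acid epoxides, had 375, 483 and 398 CPM, then 359, 262 and 87.7 CPM, then 487, 524 and 615 CPM. With 21 mo/O304 against 21 mo, 0 of the 36 genes of the list had an adjusted p under 0.05 in edgeR, and the median log2 fold change was 0.34. At an unadjusted p under 0.05, 10 were higher and 1, Ephx1, was lower, beside 8.27% and 12.4% of all genes. DESeq2 called 0 higher and 1 lower, beside 1.81% and 4.27% of all genes, and voom with quality weights 15 and 3, beside 21.2% and 19.8%. Without 21 mo-1, edgeR called 14 and 2, beside 10.6% and 12.6%.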

How the data were processed

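Paired-end reads were made from whole-kidney RNA. According to the submitters' processing notes, the authors used HISAT2 2.0.5, featureCounts 1.5.0-p3, DESeq2 1.20.0 and GRCm38. The authors deposited raw counts per gene, without normalization, and FPKM values, scaled by gene length and library size. The authors' log2 fold changes and p-values, also in the table, were not used. Strandedness and the handling of multiply mapped reads are not given in the sources used here, and 13 of the 39 tested genes overlap another gene. The table names Cyp2c44 as Cyp2c23.

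The 15902 genes with enough counts (filterByExpr, minimum count 10, minimum total 15) were tested in R 4.3.3 with edgeR 4.0.16 (TMM, quasi-likelihood F test, 3 group means over all 9 libraries, 6 residual degrees of freedom, two-sided, Benjamini-Hochberg adjustment). The test was tried on simulated data. Log2 CPM used a prior count of 2. Total counts of 15636378 to 18396725 limit single genes as stated. Replicates of a group differed beyond sampling noise and were all kept. Alternatives were DESeq2 1.42.0, limma 3.58.1 voom with quality weights, RLE size factors, every gene with at least 1 count, only the 6 libraries compared, a replicate block and leaving out each library.

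Genes named in full were the 10 with the highest mean FPKM, up to 8 higher and 8 lower genes with the smallest p-values per comparison, and 12 chosen by role. Genes named outside this rule, and all genes of the partner list that are named, were chosen after their values were seen. The gene set and all lists were chosen with earlier results of these data known. Results that need a withheld item are not reported here.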

Additional observations from a re-analysis of the deposited data

How the results depend on the processing

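With all 9 libraries in edgeR, 0 P450 and 0 partner genes passed the threshold in each of the 3 comparisons, and RLE size factors, only the 6 libraries compared and the replicate block also gave 0 in each. For 21 mo against 18 mo the count of P450 genes was 1 with every gene that had at least 1 count, 3 with DESeq2, 24 with voom and quality weights, and 0 to 14 when 1 library was left out. Partner genes gave 1, 6, 23 and 0 to 15. In the same order, the shares of all genes called were 2.04%, 7.29%, 52.9% and 0% to 25.4%. The DESeq2 shares here are of all 28225 genes with a count. For 21 mo/O304 against 21 mo the P450 counts were 2 with DESeq2, 22 with voom and 0 to 13 with 1 library left out, and the partner counts 1, 18 and 0 to 16. The shares of all genes called were 3.36%, 41.1% and 0% to 23.1%. For 21 mo/O304 against 18 mo voom called 1 partner gene, Ppox, beside 2.61% of all genes. Among the fits without 1 library, each highest count came from leaving out 21 mo-1 and the others gave 0. The cause was not tested.

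Replicate numbers were not taken to pair the libraries in the main fits, since the labels state no pairing. The correlation of deviations was over 0.1 for 5 of 9 same-numbered pairs (−0.13 to 0.175) and for 3 of 18 others, which does not settle whether the numbers pair the libraries. The replicate block is the alternative that allows for it. Of 72 fold changes of single genes, 14 changed direction in at least 1 alternative. With 1 library left out, 21 mo against 18 mo ranged from −0.30 to 0.59 for Cyp1a1, −0.71 to 0.51 for Cyp2c23, −0.54 to 0.74 for Cyp2d26, −1.40 to 0.22 for Cyp2j11, −1.31 to 0.051 for Cyp2j5, −0.24 to 0.32 for Cyp2r1 and −1.83 to 0.45 for Cyp7b1. For 21 mo/O304 against 21 mo the ranges were −0.34 to 0.57 for Cyp1a1, −1.82 to 0.35 for Cyp26a1, −0.18 to 1.06 for Cyp2c23, −0.60 to 0.69 for Cyp2d26 and −1.08 to 1.88 for Cyp7b1, and for 21 mo/O304 against 18 mo −0.038 to 0.30 for Cyp2j6. The replicate block gave −0.27 for Cyp2c23 in 21 mo against 18 mo and 0.059 for Cyp2d26 in 21 mo/O304 against 21 mo. voom gave −0.014 for Cyp2c23 and −0.53 for Cyp2r1 in the first, and −0.049 for Cyp1a1 and 0.047 for Cyp2r1 in the second. Depth limits the genes near 1 CPM, such as Cyp2j7 and Cyp2b10.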
